A study of Mus musculus with 3 samples.

Results

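The peroxiredoxins, superoxide dismutases and catalase, together with the thioredoxin that serves them, were followed in macrophages sorted from mouse kidneys. They are the rows of a table of 14811 genes that carry the symbols Prdx1, Prdx2, Prdx3, Prdx4, Prdx5, Prdx6, Sod1, Sod2, Cat and Txn1, and all 10 were listed. The libraries came from 3 C57BL6/J mice, which form a single group: each received PBS into a vein, and the kidneys were taken 1 h afterwards, so there is no second treatment, genotype or time to compare with. The kidneys were digested with DNase, collagenase D and dispase for 30 min at room temperature and macrophages were sorted by FACS. The labels used here give no age, sex or sorting gate. They title the samples kidney mac 1, 2 and 3, and these are called mouse 1, mouse 2 and mouse 3 here.

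These enzymes dispose of the reactive oxygen that respiration and the macrophage's own oxidase produce. Superoxide dismutases turn superoxide into hydrogen peroxide, and catalase and the peroxiredoxins turn hydrogen peroxide into water. A peroxiredoxin does so through a cysteine that the peroxide oxidises, and thioredoxin, itself kept reduced by thioredoxin reductase, restores most members of the family. The members sit in different places: Prdx1, Prdx2 and Sod1 mainly in the cytosol, Prdx3 and Sod2 in mitochondria, Prdx4 in the secretory pathway, Prdx5 in mitochondria, peroxisomes and cytosol, and catalase in peroxisomes.

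Values are normalised reads, that is reads per gene divided by a size factor of the library. The libraries held between 50646558 and 56718534 reads over the listed genes, and 1 read is worth 0.555 to 0.806 normalised reads. All 9 macrophage markers looked for were present in every mouse, so the label was met. They summed to 429575, 295856 and 364852 normalised reads in mice 1, 2 and 3. The sum was lowest in mouse 2, where 1 of the 9 was highest. Markers of kidney tubule were present as well and differed between mice. The 8 proximal tubule markers, led by Kap, summed to 42261 normalised reads in mouse 1, 200172 in mouse 2 and 17520.1 in mouse 3, and all 8 were highest in mouse 2. Loop and distal tubule markers (4 genes, 250, 5872 and 1140.4 in mice 1, 2 and 3) and collecting duct markers (4 genes, 24.2, 1147 and 93.0) were also highest in mouse 2. The sums of endothelial markers (5 genes, 534, 133 and 1387), fibroblast markers (4 of 5 genes, 952, 118 and 193) and dendritic cell markers (5 genes, 3960, 1333 and 1885 normalised reads, mostly Clec9a) were lower in mouse 2 than in both other mice. Kdr (453, 7.77 and 1345) led the endothelial sum and Dcn (906, 0.555 and 154) the fibroblast sum in mice 1 and 3. In mouse 2 Emcn (99.3) led the endothelial sum, and Pdgfra (59.9) and Col3a1 (54.4) led the fibroblast sum. However, 2 of the 5 endothelial genes and 2 of the 4 fibroblast genes were highest in mouse 2, so these lists give no common direction. Of 8 erythroid, 5 neutrophil and 6 lymphocyte markers looked for, only 1 each was listed by symbol, Hba-a1, S100a9 and Cd3e. Each of these was at 0 in every mouse. None of the 3 NK cell markers looked for was listed, so most markers of these cells could not be checked. Mouse 2 therefore stands apart in tubule transcripts, and levels that rest on it are also given without it.

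Prdx1, a cytosolic peroxiredoxin, was the most abundant of the 10 genes and the steadiest. It was at 40409.8, 38284 and 40085 normalised reads in mice 1, 2 and 3, which is 39593 ± 1145 (SD, n = 3). The highest mouse exceeded the lowest by 1.06-fold, with mouse 2 the lowest. Together the 10 genes took 0.249% ± 0.0541 of the reads of a library (SD, n = 3), and Prdx1 alone made up 43.4%, 39.1% and 53.5% of their summed level in mice 1, 2 and 3. In sorted bulk samples a lower level can mean fewer cells that hold the transcript or less of it per cell, and these cannot be told apart.

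The stretch before the start of Prdx1 is printed because this gene led the family, and those of Sod1, low and steady, and Cat, which varied most among the abundant members, are set beside it. Capitals mark matches to TGACNNNGC, the core of the antioxidant response element that Nrf2 binds with small Maf proteins, here on the opposite strand. The sequences are RefSeq promoter windows on GRCm38.p6, given 5′ to 3′ on the strand of the gene and ending before the first annotated exon.
Prdx1, chr4:116685349-116685543, plus strand: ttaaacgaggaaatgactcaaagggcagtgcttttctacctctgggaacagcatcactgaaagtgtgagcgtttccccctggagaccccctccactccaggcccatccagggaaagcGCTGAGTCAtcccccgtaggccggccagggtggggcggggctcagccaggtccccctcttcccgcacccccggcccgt
Sod1, chr16:90220512-90220753, plus strand: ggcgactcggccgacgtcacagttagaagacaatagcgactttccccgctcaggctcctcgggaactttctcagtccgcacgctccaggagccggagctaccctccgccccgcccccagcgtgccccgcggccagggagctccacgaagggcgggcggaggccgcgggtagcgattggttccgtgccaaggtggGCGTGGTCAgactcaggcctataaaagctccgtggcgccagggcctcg
Cat, chr2:103485161-103485403, minus strand: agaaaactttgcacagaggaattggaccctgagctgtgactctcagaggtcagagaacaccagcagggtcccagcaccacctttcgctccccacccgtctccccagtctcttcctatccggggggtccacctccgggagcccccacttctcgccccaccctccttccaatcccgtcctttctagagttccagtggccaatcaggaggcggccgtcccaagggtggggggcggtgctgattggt
The match in Prdx1 reads TGACTCAGC on the minus strand, begins at position -133 from the RefSeq start and overlaps a TGACTCA, the AP-1 motif. The match in Sod1 reads TGACCACGC on the minus strand and begins at position -56. Searched on both strands in windows of 300 bases, 250 before and 50 after the start, TGACNNNGC occurred in 2 of the 9 genes of the set that have a window, against 12.4% of 32851 windows. The related TGAGNNNGC occurred in 1 of the 9, Prdx1, downstream of the printed stretch, against 17.6% of windows, and TGACTCA in 1 of the 9, again Prdx1, against 5.2%. The 9 windows held 57% to 68.7% G and C, with a median of 62%, against a median of 52.7% over all windows. These matches are letters in a window and say nothing on whether a factor binds there. Prdx6 has no window in that table.

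Prdx2, the other cytosolic member, was at 2392, 6998 and 4497 normalised reads in mice 1, 2 and 3 (4629 ± 2306, SD, n = 3). Its level differed 2.93-fold between the lowest, mouse 1, and the highest, mouse 2. Exons of Prdx2 overlap those of Junb (252, 6.10 and 156 normalised reads) and Rnaseh2a (3088, 1007 and 7.75) on the opposite strand, and whether the counting used strand is not given in the sources used here, so its level is uncertain.

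The mitochondrial Prdx3 was at 7828, 5324 and 5098 normalised reads (6083 ± 1515, SD, n = 3), highest in mouse 1 and close together in mice 2 and 3. Prdx5, which works in mitochondria, peroxisomes and cytosol, was at 8919.6, 11228 and 3762 (7969.7 ± 3823, SD, n = 3), with mouse 3 lowest. It shares exon positions with Trmt112 on the opposite strand (457, 1597 and 712 normalised reads). Prdx4, the peroxiredoxin of the endoplasmic reticulum, was at 10332.5, 2694 and 5542 (6189.6 ± 3860, SD, n = 3), and here mouse 2 was the lowest and mouse 1 the highest, 3.83-fold apart.

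Prdx6, which reduces peroxidised phospholipids as well as hydrogen peroxide and uses glutathione rather than thioredoxin, was present at length in a single library. It was at 35.5 normalised reads in mouse 1, 5679.7 in mouse 2 and 49.3 in mouse 3. These rest on 44 reads (95% exact Poisson interval 32.0 to 59.1), 10234 reads (10037 to 10434) and 70 reads (54.6 to 88.4), and the intervals cover counting error only. Mouse 2 was thus 160-fold above mouse 1 and 115-fold above mouse 3. Without mouse 2 the mean was 42.4 normalised reads, against 1921.5 ± 3255 with it (SD, n = 3).

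Such single-library genes were not rare. Of 11603 genes with a mean of 10 or more, 1.54% were at 1000 or more in mouse 2 and at least 50-fold above both other mice, and the same held of 1.57% for mouse 1 and 1.61% for mouse 3. The summed proximal tubule markers were 4.74-fold higher in mouse 2 than in mouse 1 and 11.4-fold higher than in mouse 3. Kap made up most of these sums (35490, 172061 and 13511 normalised reads), and single markers differed widely. Mouse 2 exceeded the mean of the other mice from 2.92-fold for Miox to 323-fold for Slc5a2 (0.806, 130 and 0 normalised reads), and 134-fold for Prdx6. The part of tubule transcripts in the level of Prdx6 was not tested. The named copy Prdx6b was at 0, 12.2 and 0 normalised reads.

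**Figure D1:**
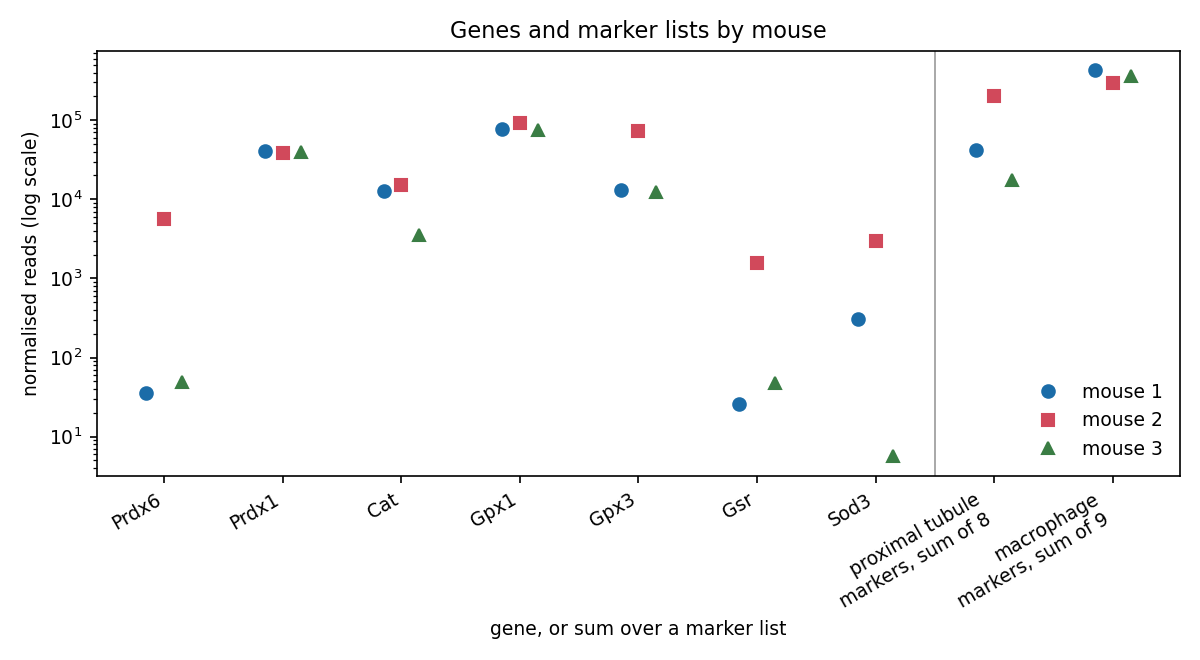
Normalised reads (log axis) in mice 1, 2 and 3 for Prdx6, Prdx1 and Cat, for 4 related genes outside the set, and for the sums of 8 proximal tubule and 9 macrophage markers, each point being a library. Prdx6 sits at 5679.7 in mouse 2 and at 35.5 and 49.3 in mice 1 and 3, Prdx1 lies between 38284 and 40409.8 in all 3, and the tubule sum is highest in mouse 2.

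Txn1, the cytosolic thioredoxin that reduces the oxidised peroxiredoxins, was at 5946, 7983 and 6211 normalised reads in mice 1, 2 and 3 (6713 ± 1107, SD, n = 3). Its highest and lowest mice were 1.34-fold apart. The named pseudogene Txn-ps1 was near the floor, at 4.03, 5.55 and 4.93 normalised reads. Processed copies of these genes that carry other names may still share reads with them, so all 10 levels are uncertain to that extent.

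Sod1, the copper and zinc dismutase of the cytosol, had the lowest mean of the 10 genes over 3 mice, but without mouse 2 the mean of Prdx6 was lower, at 42.4 normalised reads against 1433 for Sod1. It was at 1585, 1940.2 and 1282 normalised reads (1602 ± 329, SD, n = 3), with mouse 2 highest. Sod2, the manganese dismutase of mitochondria, was at 2953, 2692 and 4913 (3519 ± 1214, SD, n = 3), with mouse 3 highest. The ranges of the 2 dismutases did not overlap before length was taken into account, and they overlapped per kb of exon.

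Catalase, the peroxisomal enzyme, had the second highest mean and the widest differences after Prdx6. Cat was at 12758, 15078 and 3534 normalised reads in mice 1, 2 and 3 (10456 ± 6106, SD, n = 3). Mouse 3 was the low one, 4.27-fold below mouse 2, and the proximal tubule sum was also lowest in mouse 3 and highest in mouse 2, a parallel whose part in the catalase level was not tested. Without mouse 2 the mean of Cat was 8146 normalised reads. In all, 6 of the 10 genes were highest in mouse 2, 3 in mouse 1 and 1 in mouse 3. The shares of all genes highest in each mouse are not given here, so nothing is drawn from these counts.

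Longer transcripts collect more reads, so levels of different genes were compared per kb of exon. On that scale Prdx1 led with 13011 ± 376 normalised reads per kb (SD, n = 3), and it ranked above every other member in each mouse. Txn1 came second in each mouse at 6388 ± 1054 per kb. Prdx3 (4116 ± 1025), Prdx5 (3726 ± 1787), Cat (4002 ± 2337) and Prdx4 (2939 ± 1833 normalised reads per kb) followed, and their order changed from mouse to mouse. Prdx2 stood at 1518 ± 756 per kb, and Sod1 (404 ± 83.0) and Sod2 (352 ± 121 per kb) at the low end. Prdx6 was at 7.39, 1182 and 10.3 normalised reads per kb in mice 1, 2 and 3, the lowest of the 10 in mice 1 and 3 and above both dismutases in mouse 2.

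Neighbours in the order of mean log2 level per kb were compared within each library. A difference was called beyond its spread where it had the same sign in 3 of 3 mice and its mean exceeded its SD. The same levels set the order, so each mean difference is positive in advance, and the rule is a description and not a test. Of the 9 neighbour pairs, 3 passed. Prdx1 exceeded Txn1 by a log2 difference of 1.04 ± 0.27 (SD, n = 3), Txn1 exceeded Prdx3 by 0.65 ± 0.50 (only 0.095 in mouse 1), and Prdx2 exceeded Sod1 by 1.80 ± 0.71. Prdx3 and Prdx5 (0.26 ± 0.76), Prdx5 and Cat (0.0049 ± 0.33), Cat and Prdx4 (0.40 ± 1.61), Prdx4 and Prdx2 (0.88 ± 1.74), Sod1 and Sod2 (0.23 ± 0.75) and Sod2 and Prdx6 (2.90 ± 4.36 log2 units) did not differ beyond their spread. With the longest annotated transcript as the length instead, the mean rose to 6039 normalised reads per kb for Prdx4, 2872 for Prdx2, 600.5 for Sod2 and 751 for Prdx6, more than 1.5 times the values above.

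**Figure D2:**
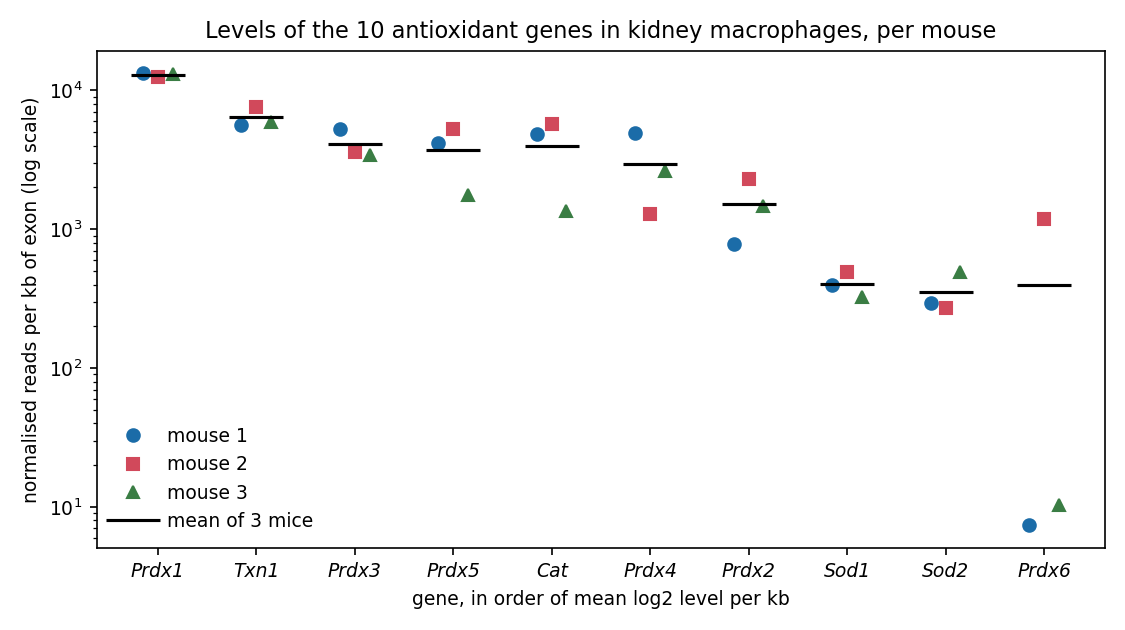
Normalised reads per kb of exon (log axis) of the 10 genes, ordered by mean log2 level, with a point for each of mice 1, 2 and 3 and a bar for their mean. Prdx1 is highest and tight at 13011 ± 376 per kb (SD, n = 3), the middle members overlap, and Prdx6 is high only in mouse 2, at 1182 per kb.

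Each gene was then set against the median gene of its library, meaning the median log2 level per kb over the 11603 genes with a mean of 10 or more. By limma, with Benjamini-Hochberg adjustment over all of them, 8 of the 10 members were above it, where 22.7% of all genes were called above and 4.32% below. The median of the 10 was 5.18 log2 units above the median gene. Prdx1 was 7.33 ± 0.32 (SE) log2 units above it, Txn1 6.29 ± 0.38, Prdx3 5.64 ± 0.43, Prdx5 5.38 ± 0.45, Cat 5.38 ± 0.45, Prdx4 4.98 ± 0.48, Prdx2 4.10 ± 0.57 and Sod1 2.30 ± 0.83, each above in 3 of 3 mice. The size of these differences follows which genes set the median. With no filter on low values they were larger, from 8.57 log2 units for Prdx1, 7.53 for Txn1 and 6.88 for Prdx3 to 5.34 for Prdx2 and 3.54 for Sod1. There 9 of the 10 were called above, where 23.5% of all genes were (limma). With a value of 10 or more required in every library they were smaller, from 5.41 for Prdx1, 4.38 for Txn1 and 3.73 for Prdx3 to 2.18 for Prdx2 and 0.38 for Sod1. There 7 of the 10 were called above, where 21.5% of all genes tested were (limma). Sod1 had the weakest of these calls (adjusted p = 0.0232, limma), and it was lost without mouse 2 (adjusted p = 0.0773, limma) and without mouse 3 (adjusted p = 0.0541, limma), and also with the longest transcript as the length (adjusted p = 0.119, limma) or a value of 10 or more required in every library (adjusted p = 0.606, limma). Sod2, above in 3 of 3 mice, was not called (2.07 ± 0.87 log2 units, adjusted p = 0.0623, limma), but it was with the longest transcript as the length (2.44 log2 units, adjusted p = 0.0139, limma), with no filter (3.31 log2 units, adjusted p = 0.0105, limma) and with no division by length (3.50 log2 units, adjusted p = 8.5e-06, limma). With a value of 10 or more required in every library it was 0.15 log2 units above (adjusted p = 0.850, limma). Prdx6 was not called either (-0.83 ± 1.77 log2 units, adjusted p = 0.739, limma) and was above the median gene in mouse 2 only. By mean level per kb, 7 of the 10 were among the top 10% of genes tested, with Prdx1 in the top 0.974%.

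All of these calls lean on the spread that limma borrows from other genes of similar level. In the main fit against the median gene the prior had infinite degrees of freedom, so its SEs are borrowed spread alone. They do not show how a member itself varied. Txn1 was 6.27, 6.31 and 6.29 log2 units above the median gene in mice 1, 2 and 3, and Prdx4 6.07, 3.74 and 5.13. With a prior that ignores level, 0 of the 10 and 0 of 11603 genes were called (8 of the 10 at an unadjusted p under 0.05, limma). With each gene's own spread alone 2 of the 10 were, Prdx1 and Txn1 (9 at an unadjusted p under 0.05, limma). In that setting 3.26% of all genes were called above. The share of all genes at an unadjusted p under 0.05 is not given here, so nothing is drawn from the unadjusted counts.

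Chosen pairs of members were compared within each library per kb of exon, each adjusted over all genes set against the same partner. Against Prdx1, Prdx2 was lower by a log2 ratio of -3.23 ± 0.48 (SE), adjusted p = 1.07e-06, Prdx3 by -1.69 ± 0.33, Prdx4 by -2.35 ± 0.40, Prdx5 by -1.95 ± 0.36, Prdx6 by -8.16 ± 1.77 and Txn1 by -1.04 ± 0.28, adjusted p = 9.27e-04 (limma), each lower in 3 of 3 mice. Prdx1 had already ranked above every other member in each mouse by these same levels. The sign of each ratio was therefore fixed in advance, and the p values (limma) add no support for the order. Since 98.6% of the 11602 other genes were called below Prdx1 and 0.681% above it, these calls set the members apart from few other genes. The prior held 28.8 degrees of freedom in this fit, so these SEs too are mostly borrowed spread. The Prdx6 ratio was -10.77 and -10.30 in mice 1 and 3 but -3.41 in mouse 2, and without mouse 2 it was -10.53. The Prdx4 ratio ranged from -3.30 in mouse 2 to -1.44 in mouse 1.

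Cat exceeded Sod1 in 3 of 3 mice, with log2 ratios of 3.61, 3.56 and 2.07 in mice 1, 2 and 3 (3.08 ± 0.48 SE, adjusted p = 2.51e-09, limma), where 10.5% of genes were called above Sod1 and 17.5% below it. This call was lost with each gene's own spread alone (adjusted p = 0.200, limma) and with the prior that ignores level (adjusted p = 0.0747, limma). In the main fit against Sod1 the prior again had infinite degrees of freedom, so its SEs are borrowed spread alone. Sod2 and Sod1 could not be separated. Sod2 was lower in mice 1 and 2 and higher in mouse 3, with log2 ratios of -0.44, -0.86 and 0.60 (-0.23 ± 0.90 SE, adjusted p = 0.826, limma). The sign turned to 0.54 with the longest transcript as the length, to 1.10 with no division by length and to 0.083 without mouse 2, none of them called. An exact sign-flip test over 3 mice cannot give a two-sided p below 0.25.

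The members differed in how much they varied between mice. On the log2 scale (value + 1), the SD over 3 mice was 0.042 for Prdx1, 0.23 for Txn1, 0.30 for Sod1, 0.34 for Prdx3 and 0.47 for Sod2. It was 0.78 for Prdx2, 0.83 for Prdx5, 0.97 for Prdx4, 1.15 for Cat and 4.08 for Prdx6. Among the 500 genes nearest to each in mean level, the SD of Prdx1 exceeded that of 0.6%, Sod1 7%, Txn1 12.8%, Prdx3 19.6% and Sod2 23%, while that of Prdx2 exceeded 53%, Prdx5 66%, Prdx4 68.8%, Prdx6 76% and Cat 87.8%. The median SD was 0.62 over the 10 and 2.55 over all genes tested, most of which are far lower in level. With libraries scaled to equal totals in place of the deposited size factors the SD of Prdx1 was 0.15, of Txn1 0.41 and of Prdx3 0.21, and Prdx1 still had the smallest of the 10.

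**Figure D3:**
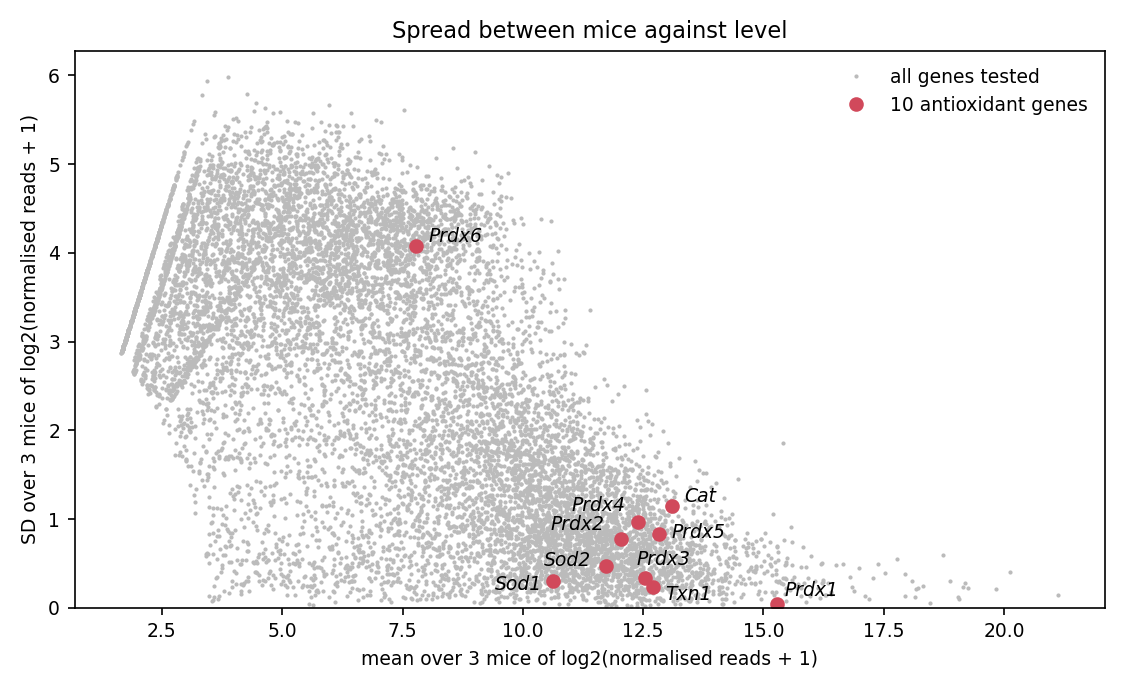
Standard deviation over 3 mice against the mean of log2(normalised reads + 1), with a grey point for each of 11603 genes and the 10 antioxidant genes in red. Prdx1 lies at the foot of the cloud with an SD of 0.042, Cat near its upper edge for its level with 1.15, and Prdx6 among genes of wide spread with 4.08.

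Genes of related function were set against the median gene in the same fit. Of the 54 genes in 6 lists of related function, 47 had a mean of 10 or more, and 13 of these were called above the median gene and 2 below (limma), against 22.7% above and 4.32% below over all genes. Of the proteins that reduce, or bind, peroxiredoxins and thioredoxin, 5 of 12 were above and 2 below, with a median of 1.47 log2 units. Txndc17, a thioredoxin-like protein, was at 6208, 10684 and 7802 normalised reads in mice 1, 2 and 3. Txnip, which binds and inhibits thioredoxin, was at 17461, 7356 and 12543, so it was highest where Txn1 was lowest. The mitochondrial thioredoxin Txn2 ranged from 1062 in mouse 3 to 8989 in mouse 2, and Sesn1 from 736 in mouse 2 to 9552 in mouse 3. The thioredoxin reductases were not called: cytosolic Txnrd1 was at 284, 353 and 1078, and mitochondrial Txnrd2 at 3426, 190.4 and 381 normalised reads. Sulfiredoxin, Srxn1, which rescues overoxidised peroxiredoxins, was at 24.2, 1053 and 1021. The 2 genes below were Sesn2 and Sesn3, each above 0 in a single mouse.

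Glutathione peroxidases remove the same peroxide with glutathione. Gpx1, the cytosolic enzyme, was above all 10 members in every mouse, at 77634, 91322 and 75522 normalised reads in mice 1, 2 and 3, and averaged 56553 per kb of exon. Gpx3, the secreted enzyme that proximal tubule cells are known to make, was at 13077, 72077 and 12225, with mouse 2 highest as for the tubule markers. Gpx4, which acts on lipid peroxides, was at 2240.4, 3297 and 1615. All 3 that were tested were above the median gene (median 7.27 log2 units), where 22.7% of all genes were called above. Gpx6 was under the filter and Gpx8 was at 0 in every mouse.

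Genes for glutathione synthesis and reduction lay on both sides of the median gene, with differences between -3.84 log2 units for Glrx5 and 2.84 for Slc3a2 and a median of 0.054. Of the 9 tested, 2 were called above and none below (limma), where 22.7% of all genes were called above, so the list's share is near that of all genes. The 2 were Slc3a2 (1873, 4197 and 1085 normalised reads) and Glrx (1277, 1271 and 5483). Of the 10 genes of this list, 6 were highest in mouse 2, among them Gsr, glutathione reductase, at 25.8, 1574 and 47.2 normalised reads, and Gss, glutathione synthetase, at 51.6, 1169.9 and 7.05. The share of all genes highest in mouse 2 is not given here, so nothing is drawn from this count. The cystine carrier Slc7a11 was at 0.806, 0 and 0.705, under the floor of 3 reads in each mouse. The extracellular dismutase Sod3 (306, 2948 and 5.64) and the copper chaperone of Sod1, Ccs (1315, 1351 and 7.75), were not called. The proximal tubule sum was highest in mouse 2 here too, and its part in these levels was not tested.

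Of the Nrf2 and Keap1 genes, 2 of 9 were above the median gene and none below, again near the 22.7% of all genes, with differences between -5.28 log2 units for Keap1 and 5.95 for Nfe2l2 (median 0.23). Nfe2l2, which encodes the Nrf2 activator, was at 33290.3, 12629 and 16395 normalised reads, and Bach1, a repressor at the same elements, at 5205, 2524 and 1544. The sensor Keap1 was at 4.03, 108 and 0.705 and the target Nqo1 at 0.806, 4.44 and 0, while the target Hmox1 was at 3236, 189 and 28.9. Of the peroxisome genes, the compartment of catalase, 1 of 16 was above, Pex2 (4621, 2081 and 4406), and none below, a smaller share than the 22.7% of all genes (median -0.63 log2 units, between -4.48 for Pex14 and 4.25 for Pex2). Pex16 (10.5, 1597 and 1698) and Pex3 (2165, 5525 and 27.5) varied widely between mice and were not called. The receptor that carries catalase into the peroxisome, Pex5, was at 1802, 1338 and 4.23 normalised reads, lowest in mouse 3 as Cat was.

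**Figure D4:**
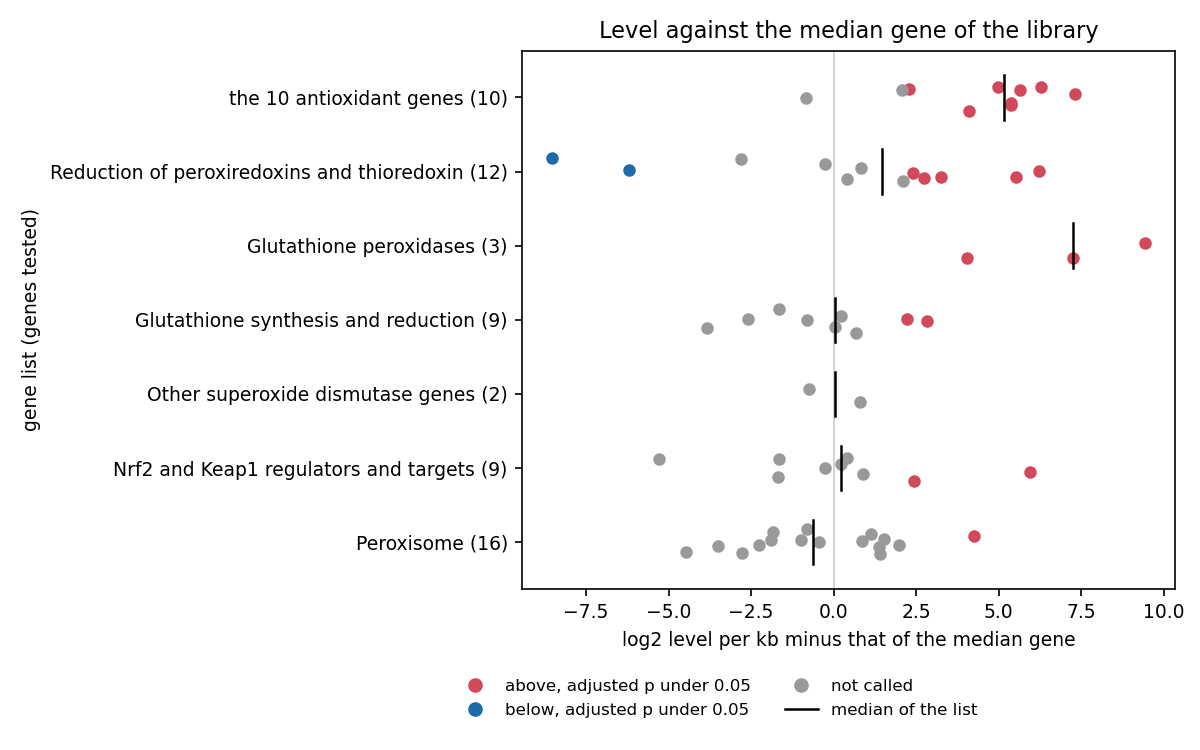
Log2 level per kb of exon minus that of the median gene for the 10 antioxidant genes and 6 related lists, a point per gene tested, coloured by its call in limma, with a line at each list's median. The 10 genes have a median of 5.18 log2 units, against 7.27 for the 3 glutathione peroxidases, 1.47 for the reducing proteins, 0.23 for the Nrf2 and Keap1 genes, 0.054 for glutathione synthesis and reduction, 0.029 for the other superoxide dismutase genes and -0.63 for peroxisome genes.

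For 9 of the members the gene with the closest pattern was taken as the one with the smallest root mean square difference in log2 level per kb over the 3 mice. Txn1 lay closest to Chmp2a (difference 0.10), Prdx3 to Tmem14c (0.10), Prdx4 to Luc7l3 (0.077), Prdx5 to Fundc1 (0.11), Prdx2 to Rps2 (0.19), Sod1 to Mplkip (0.022) and Cat to 2010107E04Rik (0.28). Sod2 lay closest to Gm11223 (0.066), annotated as a processed pseudogene. Prdx6 lay closest to Gstm5 (0.16), which was at 5.68, 1292 and 9.38 normalised reads per kb in mice 1, 2 and 3. The likeness is over 3 mice only, and nothing is drawn from it.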

How the data were processed

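Per the labels' protocols, cDNA from sorted kidney macrophages of 3 mice was amplified with SMART-seq V4, and 10 ng of it went into library preparation with 8 PCR cycles for RNA-seq. Reads carry no molecular identifiers. The deposited table holds a normalised signal for each gene and mouse. The submitters' processing notes name HTSeq 0.5.4, DESeq 1.18.0 and the mouse build mm9. Not given in the sources used here are the aligner, annotation, strand setting and row filter. The lowest value was 1 in each library, and after subtraction of 1 100% of values were whole multiples of a step (tolerance 0.05 of a step), so the authors' values are reads over a size factor with 1 added. This 1 was removed. Exon lengths came from GENCODE M21 (another build) by gene identifier, for 99.6% of genes. Each library was taken as a separate animal, since the sample titles number them.

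Levels are means ± SD. Tests used limma 3.58.1 in R 4.3.3, intercept only with a trended prior, on log2(value + 1) per kb for genes with a mean of 10 or more, with Benjamini-Hochberg adjustment over all of them at 0.05. The differences understate those of low genes. Other steps used Python 3.11.15. The members, lists and pairs were chosen with earlier results of these data known. Named genes are the members, up to 4 of each list by mean per kb, and list genes at 0 in every mouse. Txnrd1, Txnrd2, Sesn2, Sesn3, Gpx6, Gss, Glrx5, Slc7a11, Keap1, Nqo1, Pex5 and Pex14 were named after their values were seen. Some genes that the rule names are not reported here.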

Additional observations from a re-analysis of the deposited data

How the results depend on the processing

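The removal of 1, the pseudocount (0.1 or 10) and the filter kept every pair of members on its side of the threshold, and the variance prior did not. With a prior that ignores level, 0 of the 10 members and 0 of the related genes were above the median gene (8 and 9 at an unadjusted p under 0.05, limma). With each gene's own spread alone, chosen after seeing the data, 2 and 2 were (9 and 10 unadjusted), against 8 and 13. Of all genes, 3.26% were called above with own spread alone and 22.7% in the main fit. No share of all genes stands beside the unadjusted counts, so nothing is drawn from them. The related genes fell to 7 where a value of 10 or more in every library was required, which tests fewer genes. There 21.5% of all genes tested were called above. Pairs lost their call at unchanged log2 ratios. With the prior that ignores level these were Prdx3 (-1.69), Prdx5 (-1.95) and Txn1 (-1.04) against Prdx1 and Cat against Sod1 (3.08). With each gene's own spread they were Prdx2 (-3.23), Prdx4 (-2.35), Prdx5 (-1.95), Prdx6 (-8.16) and Txn1 (-1.04) against Prdx1 and Cat against Sod1 (3.08). Sod2 against Sod1, never called, turned to 1.10 without division by length and 0.54 with the longest transcript, and ranged from -0.65 to 0.083 without each mouse in turn. Prdx6 against the median gene, never called, turned to 0.41 without a filter and ranged from -3.06 to 0.39 without each mouse. The cause of these changes was not tested. No paired analysis was possible because there is a single group. The 3 libraries set the precision, and Prdx6 in mice 1 and 3 rests on 44 and 70 reads.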
